A study of Danio rerio with 16 samples.

Results

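Promoter peaks that were more open in the aortic roof endothelium than in the haemogenic endothelium of the zebrafish embryo are described here. ATAC-seq reads open chromatin through the insertion of adapters by the Tn5 transposase, and a peak is a region where insertions accumulate. The members were selected on measured values: a peak had to be annotated as promoter at a transcription start site (TSS) and to have a lower mean in the haemogenic than in the roof population. Of 9466 differential peaks deposited, 5602 (59.2%) had the higher mean in the roof population, and 506 lay at promoters. The rule took 263 of these promoter peaks (52.0%) and left 243 that were more open in the haemogenic population. Direction and size of the difference chose the members and are therefore given as a description, without a test.

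All embryos were wild type (Wt in the labels) apart from the reporters TgBAC(runx1P2:Citrine) and Tg(kdrl:mCherry), which they all carried, and cells of whole embryos were sorted at 28 to 30 hpf. Citrine stands under the regulatory sequence of runx1, a transcription factor needed for the emergence of blood stem cells, and mCherry under that of kdrl, an endothelial receptor of VEGF. DP-R1hi are mCherry-positive cells with high Citrine, enriched for the haemogenic endothelium (HE) in the floor of the dorsal aorta. DP-R1lo are mCherry-positive cells with low Citrine, enriched for the aortic roof endothelium (ARE), with intersomitic vessel sprouts among them. Each population had 3 libraries of 2000 to 3000 cells, of which the authors kept 2 for the comparison. The deposited values are the authors' means per population, so that no replicate spread and no library depth are known, and effects of the Citrine gate and of the position in the aorta cannot be told apart. In addition, 9 libraries of DN, SP-kdrl and DP-R1med cells and 1 genomic DNA control belong to the series and were not analysed here.

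Endothelium lines all vessels, and the dorsal aorta is the first artery of the trunk. Cells in its floor turn into blood stem and progenitor cells through an endothelial-to-haematopoietic transition, in which they give up their junctions and leave the vessel wall, while the roof remains vessel wall and gives rise to sprouts. The promoter around a TSS is where the transcription machinery assembles. It is often open in many cell types, whereas distal elements are more often open in few.

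Markers were looked up first. Of 10 endothelial markers, 7 had any listed peak, 5 had a member (kdrl, cdh5, tek, egfl7 and myct1a) and 0 had a promoter peak more open in DP-R1hi. Of 5 haemogenic markers, 3 had any listed peak, 0 had a member and 2 had a promoter peak more open in DP-R1hi (myb and gfi1aa). Runx1 and gata2b had no listed peak. None of the 6 arterial markers had a differential promoter peak of either direction, although 5 of them (dll4, efnb2a, hey2, dlc and cxcr4a) had differential peaks elsewhere. General endothelial markers were thus among the members and arterial markers were not, although at the 5.12% of all genes with a listed peak that had a member, lists as short as these can give 0. Of genes of other cells, 0 of 11 neuronal, 0 of 6 neural crest or sclerotome, 0 of 6 myeloid and 0 of 3 pronephros markers with any listed peak had a member, and 1 of 5 muscle markers did (ckma, creatine kinase). At 5.12% of all genes, lists of this length can give 0 as well. Away from promoters, 11 of 15 peaks of the neuronal markers and 6 of 9 of the neural crest or sclerotome markers were more open in DP-R1lo. The share over all peaks outside promoters was 59.7%. Muscle markers had 2 of 6 such peaks in that direction and pronephros markers 0 of 3. With promoter peaks counted as well, myeloid markers had 3 of 12 and primitive erythrocyte markers 1 of 11. The part of such cells in the comparison was not tested. Of 7 primitive erythrocyte markers with a listed peak, 0 had a member and 4 had a promoter peak more open in DP-R1hi (cahz, epb41b, hbae3 and slc4a1a). Over all genes with a listed peak the shares were 5.12% and 4.72%. The part of red blood cells in the comparison was not tested.

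Values below are mean log2 concentrations of normalized reads per peak, and differences are DP-R1lo minus DP-R1hi on that scale. These are reads per peak, not per length, so that the level of a gene or a set is set against another one only per kb (the concentration less the log2 of the peak width in kb). The median concentration of the members was 6.78 in DP-R1lo (4.16 to 9.15) and 4.68 in DP-R1hi (-0.14 to 8.12). The median difference was 2.15, with quartiles of 1.47 and 3.68 and a range of 0.73 to 7.85. In 117 members (44.5%) the concentration in DP-R1hi was still 5 or more, so that many of these promoters were less open rather than closed in the haemogenic population. At the other end, 37 members (14.1%) had the lowest DP-R1hi value listed, -0.14. For these the difference is read as a lower bound, which need not hold if subtraction of the control set this value. Of the 5339 peaks outside promoters that were more open in DP-R1lo, 2012 (37.7%) had this lowest value, a larger share than among the promoters. The share fell with the DP-R1lo concentration in both sets. It was 90% of the members against 85.1% from 4 to 5 and 34.4% against 48% from 5 to 6. From 6 to 7 it was 6.85% against 15.5%, and from 7 to 8 it was 1.25% against 3.72%. The part of the level in the shares over all peaks was not tested.

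**Figure D1:**
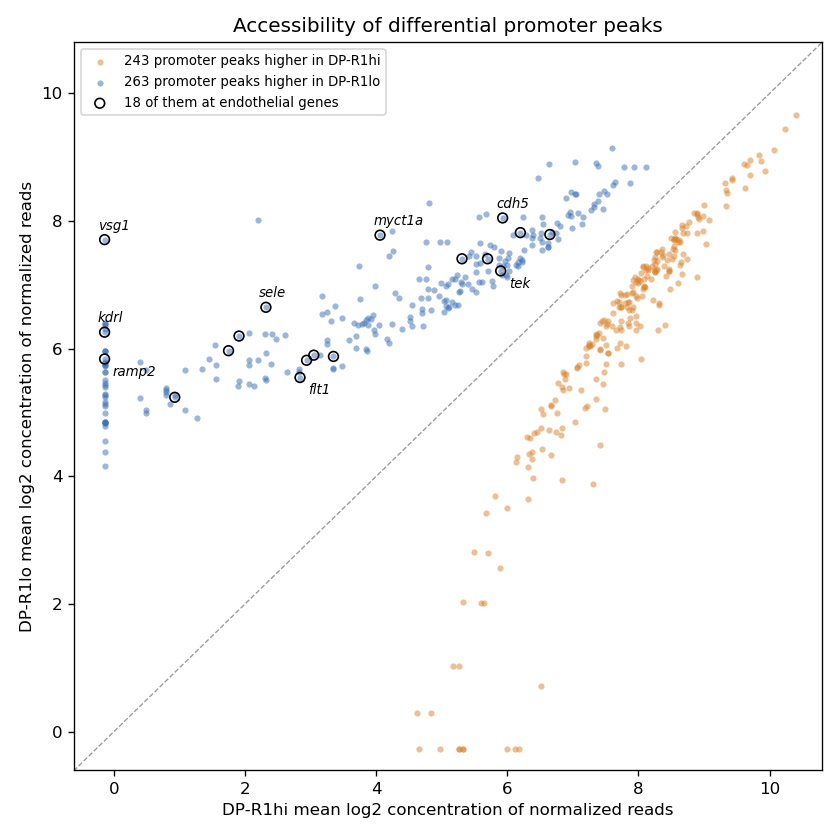
Mean log2 concentration of normalized reads in DP-R1hi (x axis) and DP-R1lo (y axis) for the 263 promoter peaks higher in DP-R1lo (blue) and the 243 higher in DP-R1hi (orange). Black rings mark the 18 members at endothelial genes, and the dashed line marks equal values. The column of blue points at the left edge is the 37 members at the lowest DP-R1hi value, -0.14. There are no points near the dashed line because only differential peaks were deposited.

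The difference was at least 2 in 145 members (55.1%). This compares with 84.1% of the peaks outside promoters that were more open in DP-R1lo and with 45 of the 243 promoters more open in DP-R1hi (18.5%). The size of a listed difference went with the concentration of the promoter peak in DP-R1lo. Among the 74 members with a DP-R1lo concentration below 6 the smallest difference was 2.11 and the median 4.53, whereas among the 36 members at 8 or more the smallest was 0.73 and the median 1.17. Promoters more open in DP-R1hi followed the same course by their DP-R1hi level, from a median size of 4.24 below 6 to 0.93 at 8 or more. Their smallest size below 6 was 2.13. Only peaks past the filters of the authors were listed, and the part of these filters in this course was not tested. Within a class of concentration in the open population the members had the larger median, with 2.33 against 1.80 from 6 to 7, 1.48 against 1.23 from 7 to 8 and 1.17 against 0.93 at 8 or more. The share with a difference of at least 2 was 64.4% against 39.5%, 21.2% against 9.64% and 19.4% against 2.91% in the same classes, and 100% of both sets below 6. Per kb, the median log2 concentration in the open population was 7.42 for the members and 8.46 for the promoters of the other direction. The part of this difference in level in the shares was not tested.

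At the edge of the list, the members with the smallest differences were tnfaip8l1, xylt1 and ptena (0.73 each), zgc:91909 (0.81) and cdon (0.89). Ptena, a phosphatase that opposes PI3 kinase signalling, had 8.60 in DP-R1lo and 7.87 in DP-R1hi. Just outside the rule lay zgc:101800 (-0.71), rpz2, xylb and zgc:165653 (-0.72 each) and zgc:158643 (-0.73). Both edges stand at the fold change filter of the authors, so that no promoter with a smaller difference was listed.

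Of the gene lists, that of endothelial identity genes had the largest share of genes with a member. Of its 36 genes with any differential peak, 17 had a member and 0 had a promoter peak more open in DP-R1hi. Over the 5023 genes with any peak, 5.12% had a member and 4.72% had a promoter peak of the other direction. The gene lists were chosen with earlier results of these data known and do not hold every gene of a role. Counts of either direction therefore hold for the lists only. All lists of genes by role lay above 5.12%, the haemogenic and blood list with 3 of 27 included. The median difference over the 18 peaks of the endothelial genes was 2.87 (1.14 to 7.85), beside 2.15 over all members. Listed differences went with the concentration in DP-R1lo, as given above. The part of this in the medians of this and the following gene lists was not tested. The VEGF and angiopoietin receptor genes with a listed promoter peak all had it more open in DP-R1lo. Kdrl had 6.26 in DP-R1lo and -0.14 in DP-R1hi at chr14:32704174-32705107, a difference of at least 6.40. Its relative kdr had 5.88 and 3.35 (difference 2.53). Flt1, which binds VEGF and limits its signal, had 5.55 and 2.84 (2.71). Tek, the angiopoietin receptor Tie2, had a smaller difference, with 7.22 in DP-R1lo and 5.90 in DP-R1hi (1.32). All embryos carried the kdrl:mCherry transgene, and reads from kdrl regulatory sequence in the transgene cannot be told apart from reads of the endogenous locus.

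Junction and surface genes were the next to be described. The promoter of cdh5 (VE-cadherin, the adhesion molecule of endothelial junctions), at chr7:44105708-44106628, had 8.05 in DP-R1lo and 5.93 in DP-R1hi, a 4.35-fold difference. Pecam1, another junction protein, had 5.82 and 2.94 (7.36-fold). Vsg1, now named plvapb after the protein of endothelial diaphragms, had 7.71 in DP-R1lo and the lowest value in DP-R1hi at chr11:6050899-6052083. Its difference of at least 7.85 was the largest listed, although the 37 differences read as bounds cannot be ranked among themselves. Sele, the selectin of endothelial cells, had 6.65 and 2.32 (20.1-fold). The scavenger receptor gene stab1 was the only gene with more than 1 member, with peaks 116 bp apart that had 5.90 and 3.05 in the one nearer the TSS and 5.24 and 0.93 in the other. The smallest difference among these promoters was the 4.35-fold one of cdh5, which was still well open in DP-R1hi, whereas vsg1 was at the lowest value there.

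Transcription factors and signalling genes of endothelium completed the group. Etv2 (now etsrp), an ETS factor at the top of endothelial specification, had 7.41 in DP-R1lo and 5.70 in DP-R1hi (3.27-fold). Sox7, a SoxF factor of arterial and venous identity, had 7.79 and 6.65 (2.20-fold), the smallest difference of the group. Both factor promoters were thus still above 5 in DP-R1hi. Egfl7, a secreted vessel factor, had 7.82 and 6.20 (3.07-fold), and myct1a, a membrane protein gene used as an endothelial marker, had 7.78 and 4.06 (13.2-fold). Some genes of surface proteins had larger differences. Ramp2, which forms the adrenomedullin receptor with its partner, had 5.84 and -0.14 (at least 5.98), gpr182 had 5.97 and 1.75 (4.22) and tmem88a had 6.20 and 1.91 (4.29). Rhoj, a small GTPase of endothelial cells, had 7.41 and 5.31 (2.10). Per kb, the DP-R1lo concentration of the 18 peaks ran from 6.36 at kdrl to 8.52 at egfl7, which lies on both sides of the median of all members.

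**Figure D2:**
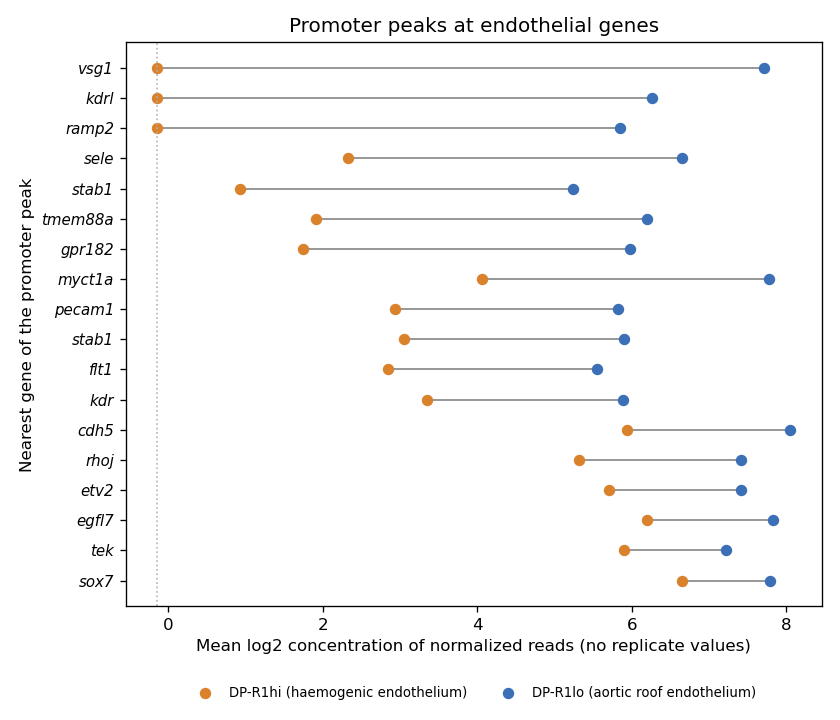
Mean log2 concentration of normalized reads at the 18 member promoter peaks of 17 endothelial genes, in DP-R1hi (orange) and DP-R1lo (blue), ordered by their difference. Grey bars join the values of a peak, and the dotted line marks the lowest DP-R1hi value listed, -0.14, reached by vsg1, kdrl and ramp2. Sox7 has the shortest bar (1.14) and vsg1 the longest (7.85). Each point is the authors' mean, and no error bars can be given.

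In the list of arterial and Notch pathway genes, 7 of 35 genes with any peak had a member and 0 a promoter of the other direction, with a median difference of 2.50. None of the 7 was among the 6 arterial markers. Outside the list, neurl1ab was more open in DP-R1hi (6.43 in DP-R1lo and 7.54 in DP-R1hi) and her11 in DP-R1lo (5.28 and 0.79). Dla, a Delta ligand of Notch, had 8.06 in DP-R1lo and 5.57 in DP-R1hi (2.49), and cxcl12b, a chemokine that binds Cxcr4, had 7.29 and 3.74 (3.55). Nrp1a, a co-receptor of VEGF and semaphorins, had 8.08 and 6.98 (1.10). The T-box repressor genes tbx2a (6.78 and 3.76, difference 3.02), tbx2b (6.38 and 3.88, 2.50) and tbx3a (8.27 and 7.32, 0.95) were all members. Aqp8a.1, an aquaporin of zebrafish vessels, had 6.14 and 3.25 (2.89). In the venous and COUP-TF list, 3 of 11 genes had a member, and all were nuclear receptors. Nr2f1a had 8.11 and 5.67 (2.44), nr2f1b had 5.73 and -0.14 (at least 5.87) and nr2f6b had 8.45 and 6.97 (1.48). The vsg1 and nr2f6b promoter peaks are neighbours on chromosome 11, 65927 bp apart.

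The haemogenic and blood list gave 3 members of 27 genes with any peak and 4 promoter peaks more open in DP-R1hi (coro1a, gfi1aa, hbae3 and myb). The members were not the transcription factors of that list. Dnmt3ab, a de novo DNA methyltransferase, had 8.86 in DP-R1lo and 7.38 in DP-R1hi (1.48) at a peak 1616 bp wide. Cxcl18b, a chemokine, had 6.23 and 2.41 (3.82), and il13ra2, a decoy receptor of interleukin 13 in mammals, had 5.29 and -0.14 (at least 5.43). On the other side, the promoter of myb had 6.30 in DP-R1lo and 7.66 in DP-R1hi, and that of gfi1aa had 4.15 and 6.31.

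Genes of cell shape, matrix and adhesion follow, and their counts hold for the chosen lists only. In the list of small GTPases, their regulators and actin genes, 16 of 53 genes had a member and 1 had a promoter of the other direction (dock5), with a median difference of 2.41. Bcar1, the focal adhesion adaptor p130Cas, had 8.90 in DP-R1lo and 6.63 in DP-R1hi, and its 9.49 per kb in DP-R1lo was the highest of all members. Akap2 (now palm2akap2), an anchor of protein kinase A, had 8.93 and 7.04, with 9.44 per kb. Contractile and bundling proteins were there with cnn2, a calponin (7.68 and 4.76), myl9a, a myosin light chain (7.04 and 5.62), and pls3, an actin bundling plastin (7.62 and 5.74). Exchange factors, which switch GTPases on, were fgd4a for Cdc42 (7.68 and 5.08), arhgef7b for Rac and Cdc42 (6.47 and 3.93), rapgef1b for Rap (6.82 and 3.18) and net1 for RhoA (6.15 and 2.47). Activating proteins, which switch them off, were arhgap42a (7.43 and 6.01) and arhgap12a (6.35 and 4.55). Among these members the exchange factors had differences of 2.54 to 3.68 and the activating proteins of 1.42 and 1.80. Exchange factor genes more open in DP-R1hi were dock5 (6.48 in DP-R1lo and 7.87 in DP-R1hi), arhgef3l, rasgrp4 and cyth4b. Activating protein genes more open there were rap1gap2a and acap1. The values are therefore not read as a contrast between the roles. The remaining members of the list were akap12b, another anchor of protein kinase A (7.66 and 5.58), micall2a (6.24 and 2.06) and kaznb (7.53 and 4.26). None of the 16 was at the lowest DP-R1hi value, the smallest being 2.06 at micall2a. Ralaa, a Ras-like GTPase, had 7.46 and 4.20. Outside the list, genes of this role went both ways. More open in DP-R1hi were arhgef3l (4.70 in DP-R1lo and 6.74 in DP-R1hi), rap1gap2a (5.05 and 7.49) and acap1 (2.02 and 5.64). So were rasgrp4, cyth4b, iqgap3, baiap2l1b and coro1a, the last counted in the haemogenic and blood list. Members outside the list included rock2a (7.81 and 6.75), cdc42bpb (7.92 and 6.81) and gsna (7.53 and 5.90). These are examples of both directions and were not counted.

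Of 28 adhesion genes with any peak, 6 had a member and 0 a promoter of the other direction, with a median difference of 3.98. Besides cdh5 these were cdh6, a classical cadherin (7.86 and 6.38), jam3b, a junctional adhesion molecule (6.44 and 3.32), itga6b, a laminin-binding integrin subunit (5.23 and 0.40), and both protocadherin genes pcdh18a (5.25 and -0.14) and pcdh18b (5.78 and -0.14). Outside the list, adhesion genes went both ways. Oclna (5.12 in DP-R1lo and 6.67 in DP-R1hi), fermt3b (6.06 and 7.50) and parvg (4.35 and 6.33) were more open in DP-R1hi. Ctnna1 was a member (6.93 and 5.46). These are examples and were not counted. In the matrix list the count was 6 of 25 against 0. Over all genes with a listed peak, 4.72% had a promoter of the other direction, so lists of this length can give 0. Laminin chains were represented by lama4, of vessel basement membranes (8.09 and 6.93), and lama2 (5.69 and 1.35). Agrn, a basement membrane proteoglycan, had 7.28 and 4.79, and col2a1a, a fibrillar collagen of cartilage and notochord, had 5.04 and 1.09. The proteases were mmp14b, anchored in the membrane (7.02 and 5.31), and the gelatinase mmp2 (7.01 and 5.40). Outside the matrix list, anos1a was more open in DP-R1hi (4.76 in DP-R1lo and 6.52 in DP-R1hi) and postnb was a member (5.14 and 0.86). Of 13 genes in the Hippo, flow and matricellular list, 2 had a member, both of the CCN family that YAP activates. Ctgfa (now ccn2a) had 6.31 in DP-R1lo and the lowest value in DP-R1hi (at least 6.45), and cyr61 (now ccn1l2) had 6.49 and 3.48 (3.01). In the other direction the list gave klf17.

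Guidance genes were members in 7 of 37 cases, against 1 in the other direction (plxna3), with a median difference of 1.37, below that of all members. Slit1a, a secreted ligand of Robo receptors, had 6.37 in DP-R1lo and the lowest DP-R1hi value (at least 6.51), whereas the receptor gene robo2 had 7.83 and 6.69 (1.14). Sema6dl, a transmembrane semaphorin (now sema6d), had 8.68 and 6.47 (2.21), and the secreted sema3ab had 7.62 and 6.38 (1.24). The ephrin gene efna3b had 7.01 and 5.10 (1.91), the Eph receptor gene ephb3a had 6.89 and 5.52 (1.37) and unc5c, a netrin receptor, had 7.15 and 5.98 (1.17). Listed signalling genes of the BMP, FGF, Wnt and Hedgehog pathways had a member in 7 of 68 cases, with 0 in the other direction. Outside the list, kremen1 was more open in DP-R1hi (6.97 in DP-R1lo and 8.10 in DP-R1hi) and cdon in DP-R1lo (8.22 and 7.33). Receptors of the list were bmpr1ab for BMP (8.42 and 7.04), fgfr1b for FGF (6.80 and 4.35) and smo, the Hedgehog signal transducer (5.91 and 3.15). Gli2a, a transcription factor of Hedgehog signalling, had 5.50 and 1.91. Ligand and inhibitor genes were fgf2 (5.16 and -0.14), nog3, a BMP antagonist (5.84 and 1.45), and spry4, a feedback inhibitor of FGF signalling (8.85 and 7.93).

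The list of homeobox and other patterning factors gave 18 members of 134 genes with any peak and 3 in the other direction (otx1a, pax6a and pbx1b). These factors place cells along the body axis or specify neurons, and tbx2a and tbx2b are counted here as well. The list does not hold every homeobox gene, so that both counts hold for the list only. Outside it, meox2b (-0.27 in DP-R1lo and 5.32 in DP-R1hi), pou3f2b (2.80 and 5.70), prox2 and hmbox1a were more open in DP-R1hi. Onecutl, also outside it, was a member (4.85 and -0.14). Of the Hox genes, hoxa5a (8.62 and 7.65), hoxc8a (7.15 and 5.23), hoxa11a (7.05 and 5.30), hoxb6a (6.67 and 3.37) and hoxc3a (5.41 and 1.90) were above the lowest DP-R1hi value, while hoxa13b (4.83) and hoxb8b (4.56) were at it. Some of these peaks adjoin. The evx1, hoxa11a and hoxa5a promoter peaks follow each other on chromosome 19 at 15381 and 21346 bp, and those of hoxc3a, mir196a-1 and hoxc8a on chromosome 23 at 551 and 12485 bp. Fev, an ETS factor of serotonergic neurons, had 6.41 and -0.14 (at least 6.55). The factors of head and forebrain were six3a (5.66 and 0.49), dlx2a (6.22 and 2.61), zic2a (5.97 and -0.14) and zic2b (6.39 and 4.25). Foxa1, a factor of endoderm and floor plate, had 7.60 and 5.80. Isl2b, of sensory and motor neurons, had 6.30 and 3.97, ebf3a had 7.46 and 5.41, and evx1 had 5.40 and -0.14. The peaks of the neuronal markers that were more open in DP-R1lo, none of them at a promoter, had a median difference of 4.46.

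In some groups members were few. Of 132 genes that a symbol prefix puts among metabolic, ribosomal and housekeeping genes, 0 had a member and 11 had a promoter peak more open in DP-R1hi, for example rps10 (6.56 in DP-R1lo and 7.61 in DP-R1hi). Of 96 solute carrier genes, 2 had a member, slc24a4a (6.63 and 4.70) and slc7a2 (5.41 and 2.14), and 7 had a promoter of the other direction. These counts stand beside 5.12% of all genes with a member and 4.72% with a promoter of the other direction. They hold for the chosen prefixes only. In the other lists by symbol, chemokine and cytokine genes had a member in 8 of 45 cases, against 3 of the other direction. For ion channel and synaptic genes the count was 5 of 70 against 3, and for kinesin, tubulin and cilia genes 3 of 48 against 1. Zinc finger genes had 2 of 47 against 3 and uncharacterised genes 17 of 506 against 24. Metabolic genes that the prefixes miss went both ways. Gapdhs (7.06 in DP-R1lo and 5.77 in DP-R1hi) and pfkfb3 (6.91 and 5.28) were members, while dhfr (6.87 and 7.90) and impdh2 (7.29 and 8.39) were more open in DP-R1hi.

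Outside the lists of genes by role, the largest listed differences were bounds, at promoters with the lowest DP-R1hi value. These were znf804a (6.39 in DP-R1lo, at least 6.53), ankfy1 and zmiz1a (5.97 each, at least 6.11) and tuba8l3, a tubulin (5.80, at least 5.94). Peaks with many reads in DP-R1lo were those of zgc:100829 (9.15 and 7.60, 9.09 per kb in DP-R1lo), vdra, the vitamin D receptor (8.91 and 7.36, 9.08 per kb), fstl5 (8.85 and 7.78, 9.22 per kb) and tnfaip8l1 (8.85 and 8.12, 8.45 per kb). All 4 were also well open in DP-R1hi, with differences from 0.73 to 1.55. Paralogues of the genome duplication of bony fish were present together in 6 cases, nr2f1, pcdh18, rarg, tbx2, tmem88 and zic2, and in 0 cases among the promoters of the other direction. The number of such pairs among all genes with a listed peak is not given here, so these counts are not read as a trait of the members. The reads of such pairs were counted at separate loci, and how reads that fit both were treated is not given in the sources used here.

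At microRNA records lay 5 members, all identified through their accessions. Where the primary transcripts of these microRNAs start is not given in the sources used here. The peaks are therefore near an annotated microRNA and are not shown to be its promoter. Mir150, a microRNA that targets Myb in mammals, had 7.84 in DP-R1lo and 4.24 in DP-R1hi at chr3:32438717-32439561, a 12.1-fold difference. This peak was centred at -456 bp and did not cover the annotated start. Mir30b had 7.30 and 5.93, mir338-2 had 5.68 and 2.82, and mir196a-1, in the HoxC cluster, had 4.79 and -0.14. The peak at mir430c-5 was 4917 bp wide, by far the widest member, with 8.01 and 2.20. It lies in an array of near-identical miR-430 copies on chromosome 4, where reads cannot be assigned to 1 copy with certainty. The other wide members were pierce1 (2122 bp), rbfox2 (1804 bp), dnmt3ab (1616 bp) and ptprma (1540 bp).

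Peaks elsewhere at the same genes were then counted. A total of 150 of the 257 member genes had at least 1 differential peak outside promoters, 353 peaks in all, and 278 of these (78.8%) were more open in DP-R1lo. For comparison, the share was 59.7% of all 8722 peaks outside promoters and 34.5% of the 174 such peaks of genes whose promoter was more open in DP-R1hi. The same order was found in introns (79.4%, 60.1% and 31.5%) and between genes (77.0%, 59.5% and 36.3%). By gene, 96 of the 150 had such peaks of the DP-R1lo direction only, 39 had both and 15 had the opposite direction only. No gene had promoter peaks of both directions, but only 1 member gene had a second listed promoter peak, so that this says little. Peaks were assigned by the nearest TSS, and peaks of a gene are not independent of each other.

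**Figure D3:**
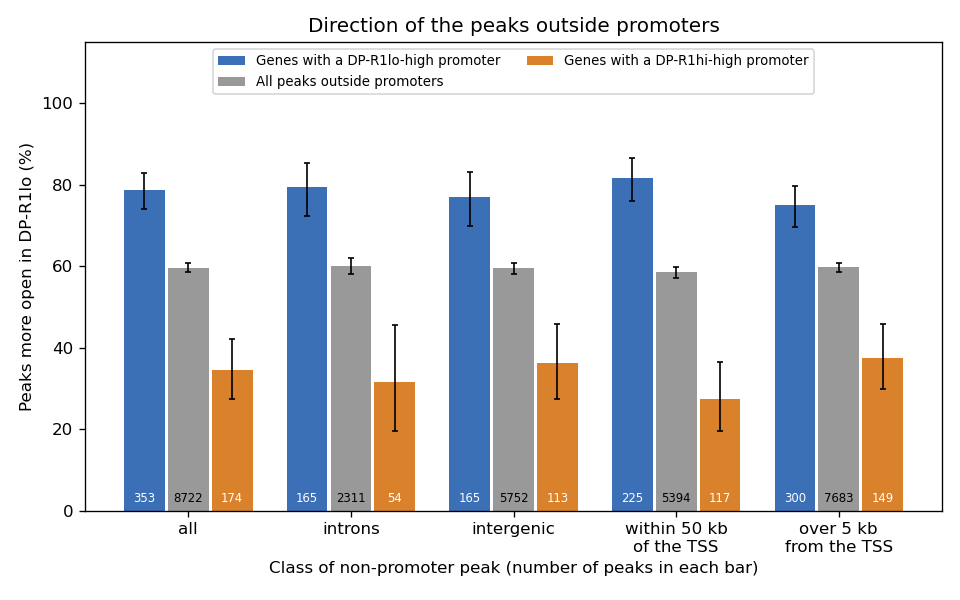
Share of peaks outside promoters that were more open in DP-R1lo (y axis, percent), for genes with a promoter peak more open in DP-R1lo (blue), all genes (grey) and genes with a promoter peak more open in DP-R1hi (orange). Bars are grouped by the class of peak, with the number of peaks at their base, and error bars are 95% Clopper-Pearson intervals that treat peaks as independent and cover counting only. The blue bars stand between 75.0% and 81.8%, the grey bars near 60% and the orange bars between 27.4% and 37.6%.

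Nr2f1a had 8 other peaks and ebf3a 7, all more open in DP-R1lo. Tbx2b had 7 in that direction and 1 in the other, and gli2a, jam3b, rarga and sox11a had 5 each, all in that direction. At cdh5 an intergenic peak at -5111 bp from the TSS had 6.38 in DP-R1lo and 1.09 in DP-R1hi, and a peak in an intron had 4.26 and -0.14. These were larger differences than that of the cdh5 promoter, which was 2.12. Robo2 went the other way, with 0 peaks in the direction of its promoter and 5 more open in DP-R1hi. Their differences were -2.46, -2.61, -2.73 and -3.08, and the fifth had 6.25 in DP-R1hi and the lowest value listed for DP-R1lo, -0.27. Egfl7 had 4 peaks upstream in the direction of its promoter and 1 peak, at -41901 bp, with 4.52 in DP-R1lo and 7.30 in DP-R1hi.

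Within a gene the promoter usually had the smaller difference. Of 135 member genes with other peaks more open in DP-R1lo, the promoter difference was below the median of those peaks in 102 (75.6%). The medians over genes were 2.05 for promoters and 4.08 for the other peaks. Without the values at the lowest DP-R1hi level the count was 70 of 94 genes (74.5%), and for genes with promoters more open in DP-R1hi it was 61 of 79 (77.2%). Among the endothelial genes, kdrl, vsg1, ramp2, gpr182 and sox7 were the exceptions, with vsg1 7.85 at the promoter against 2.74 elsewhere. Per kb, the median log2 concentration in DP-R1lo was 7.42 for the members and 6.97 for the other DP-R1lo-high peaks, and the part of that level in the smaller difference was not tested.

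**Figure D4:**
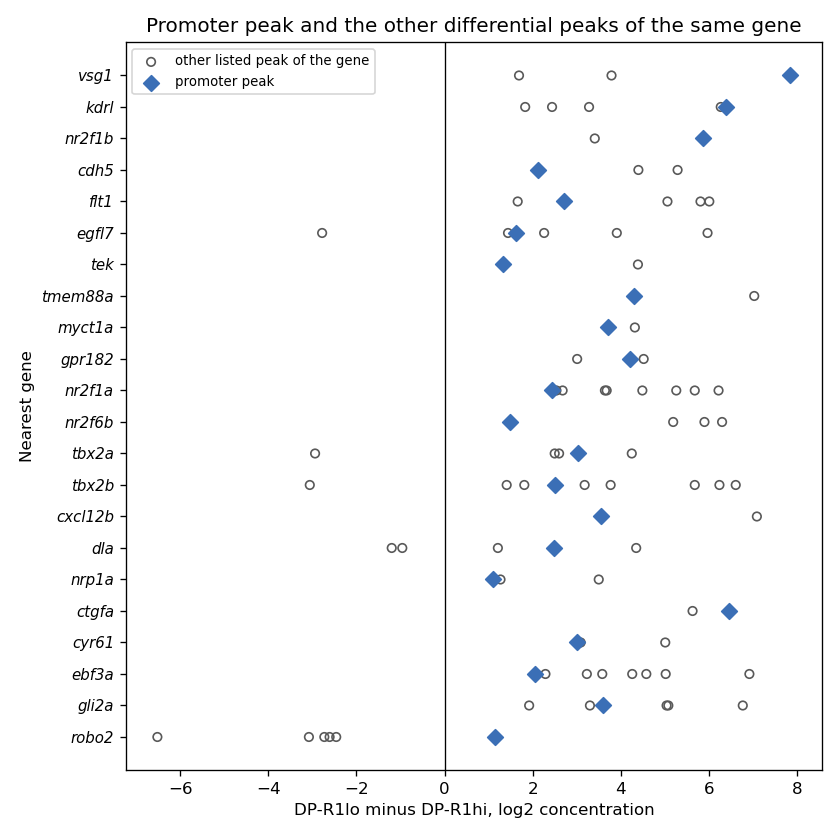
Difference in log2 concentration, DP-R1lo minus DP-R1hi (x axis), of the promoter peak (blue diamond) and of every other listed peak (open circle) of 22 member genes (y axis). Points right of 0 were more open in DP-R1lo. Nr2f6b and cxcl12b have all circles to the right of the diamond, vsg1 has both to its left, and all 5 circles of robo2 lie left of 0.

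Neighbouring peaks were also counted without regard to genes. Of the 263 members, 88 had another listed peak within 10 kb, and the nearest was more open in DP-R1lo for 82 of them (93.2%). Within 50 kb the count was 154 of 194 (79.4%), beside 59.2% over all listed peaks. Members themselves stood close in a few places, such as kcnh5a and rhoj, 3315 bp apart on chromosome 20. Members were found on all 25 chromosomes, from 5 on chromosome 25 to 20 on chromosome 5. These were 1.9% and 7.6% of the members, beside 2.3% and 5.66% of all peaks more open in DP-R1lo.

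The members lay mostly upstream of and over the TSS. The median distance of the peak centre was -77 bp (-975 to 568), and 142 centres (54.0%) were within 100 bp. The peak covered the TSS in 221 members (84.0%), compared with 226 (93.0%) of the promoters more open in DP-R1hi, whose median distance was -47 bp. Centres more than 500 bp upstream were found in 22 members (8.37%) and in 11 promoters of the other direction (4.53%). Members at the lowest DP-R1hi value were further upstream, with a median of -144 bp, than the other members (-70 bp). The limits of the class follow from the promoter window of the annotation. In 6 members, among them ralaa (209 bp), cryl1 (568 bp) and hoxc3a, the peak is annotated at the promoter of another transcript than the one that names its gene.

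**Figure D5:**
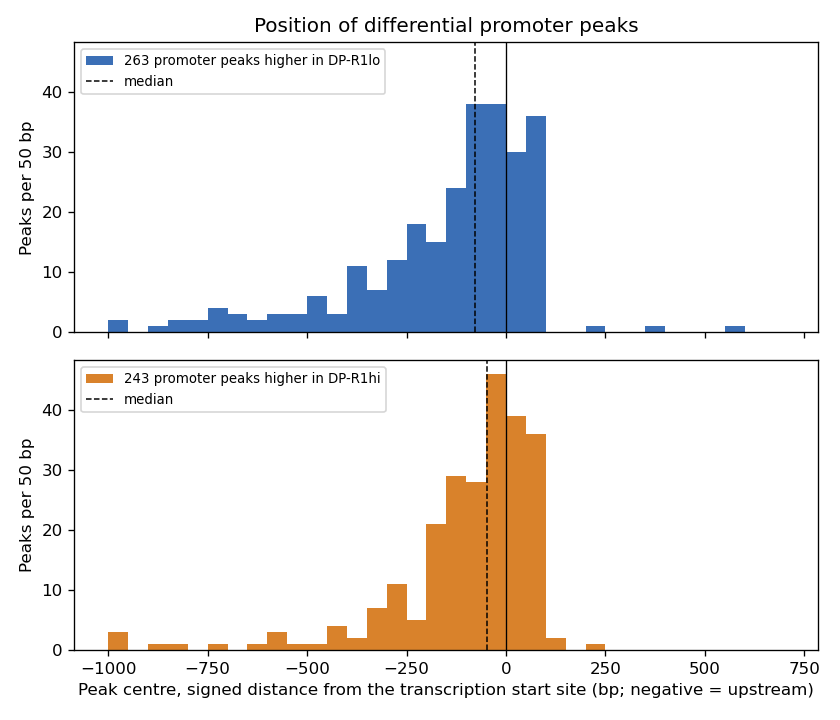
Number of promoter peaks per 50 bp (y axis) by the signed distance of the peak centre from the TSS in bp (x axis, negative is upstream), for the 263 members (top, blue) and the 243 promoters more open in DP-R1hi (bottom, orange). Dashed lines mark the medians of -77 bp and -47 bp. The blue distribution has more peaks beyond 500 bp upstream (22 against 11).

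Width moved with the level. The median width was 614 bp (254 to 4917), compared with 637 bp for the promoters of the other direction and 485 bp for the other DP-R1lo-high peaks. The 52 members of at most 450 bp had a median DP-R1lo concentration of 5.68 and a median difference of 3.67, and the 52 members over 900 bp had 7.67 and 1.48. Over the 263 members Spearman's rho was 0.71 between width and DP-R1lo concentration and 0.28 between width and concentration per kb. The rho between DP-R1lo concentration and difference was -0.77. These are descriptions over peaks that share libraries and were listed only past the filters of the authors.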

How the data were processed

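Sorted cells of zebrafish embryos were profiled by ATAC-seq. The authors trimmed reads with Trimmomatic 0.32, mapped them with BWA 0.7.12 to GRCz10 (Zv10), called peaks against genomic DNA and counted reads with featureCounts. The authors tested DP-R1hi against DP-R1lo by DiffBind and its edgeR option after removing 1 outlying replicate of each, annotated peaks with HOMER 3.0 and kept absolute log2 fold changes above 0.7. The deposited lists have no header. The authors' mean log2 concentration of normalized reads was used for each group, with its column identified by the direction of each list, and the combined column equalled the log2 of the average of both groups within 0.01. The deposited HOMER distance to the TSS (bp) was used as given, with distances of the peak centre. The deposited fold changes and p-values of the authors were not used, and differences are of the group means. Depths are unknown and no test was made, because the means carry no replicates.

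Promoter peaks with the lower mean in DP-R1hi were selected. The members and gene lists were chosen with earlier results of these data known. Named were the 12 members with the largest difference, the 10 with the highest DP-R1lo mean, the 5 nearest to each side of the rule, the 5 widest, genes with several members, and member genes of the role lists. For lists of over 15 members only the 15 highest in DP-R1lo were to be named, and the few named beyond them were added after their values were seen. The lowest DP-R1hi mean listed was -0.14. If subtraction of the control set it, differences against it need not be lower bounds. Widths count both end positions. Accessions were matched to RefSeq (GRCz12tu, names only) for 253 members. No sequence was used, so promoter motifs were not analysed here. The scripts that select and count peaks were checked on simulated lists with known answers. The versions were matplotlib 3.10.9, scipy 1.17.1, pandas 2.3.3 and numpy 2.4.6, on Python 3.11.15.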

Additional observations from a re-analysis of the deposited data

How the results depend on the processing

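Over the alternatives, 27 of 37 values moved by less than the spread allowed (within 1.5 times for a number, within the interval of the main value otherwise). With a difference of at least 2 required of all peaks, 145 members were left, with a median difference of 3.60, a median DP-R1lo concentration of 5.97, a median width of 520 bp, 25.5% at the lowest DP-R1hi value and 84.4% of the other peaks of their genes more open in DP-R1lo. With promoters defined by a distance of at most 1000 bp to either side in place of the annotation, 399 members were found, with a median width of 670 bp, and the median distance changed sign to 7 bp, since the annotated class ends soon after the TSS. Without members at the lowest DP-R1hi value the median DP-R1lo concentration was 7.01. The share of the other peaks was 81.8% within 50 kb, 75.0% beyond 5 kb and 79.1% with 1 vote per gene, alternatives chosen after seeing the data. No paired analysis was possible because single libraries have no values in the deposited tables, and for the same reason leaving out replicates and other count models were not run. Alternatives for promoter motifs were not run, as no sequence was used. Without replicate values, a listed difference cannot be set against the spread between libraries, and peaks below the authors' thresholds are not in the lists, so a promoter without a member is not shown to be equally open.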

Other observations

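The following members lie outside the role lists and were chosen after their values were seen. Genes of retinoid and aryl hydrocarbon signalling were among them. Both retinoic acid receptor gamma genes were members, rarga with 7.79 in DP-R1lo and 6.29 in DP-R1hi and 5 other peaks of that direction, and rargb with 5.10 and -0.14. Ahr2, the receptor of dioxins in fish, had 5.04 and 0.49 at a peak -848 bp from the TSS, and its target gene cyp1a had 7.21 and 5.53. Of the 5 other peaks of ahr2, 3 were more open in DP-R1lo and 2 in DP-R1hi. The promoters of ahr1a (-0.27 in DP-R1lo and 5.26 in DP-R1hi) and arnt2 (7.40 and 8.52) were more open in DP-R1hi. Aryl hydrocarbon genes thus went both ways. Genes of cell adhesion had members as well, with ptk2aa, a focal adhesion kinase, at 8.12 and 7.08, and ctnna1, alpha-catenin, at 6.93 and 5.46. Adhesion genes outside the list that were more open in DP-R1hi are given above. Kitlga, which encodes a ligand of the Kit receptor of blood and pigment cells, had 4.16 in DP-R1lo and -0.14 in DP-R1hi. Its 1 other peak was more open in DP-R1hi.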
